A study of Homo sapiens with 12 samples.

Results

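The transcripts of the cytosolic ribosomal proteins were followed in the KYSE70 line, derived from a human squamous carcinoma of the esophagus, by RNA sequencing of 12 libraries. There were 4 libraries of untreated control cells, 4 of cells given 10 µM pyrimethamine and 4 of cells given 20 nM mitoxantrone, with 72 h of treatment for either drug. Pyrimethamine, an antiparasitic drug, blocks dihydrofolate reductase. Mitoxantrone, used in cancer treatment, binds DNA and traps topoisomerase II on it. All groups are the same single cell line, and the labels state neither a vehicle for the control nor if a group's libraries stem from independent cultures, so the p-values speak only of variation among these samples, some of which may be technical. Members were taken by symbol: RPL or RPS followed by a number and, for some, by A, X, L or a further digit, and the 4 genes RPLP0, RPLP1, RPLP2 and RPSA. The rule found 84 of the 58884 genes listed, 52 of the large subunit and 32 of the small. Of these, 82 reached 10 normalized counts in 4 or more of the 12 libraries and were tested among 16950 such genes. The other two were paralogs: RPL10L, listed at 0 in every library, and RPL3L, with values from 0 to 13.4.

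The cytosolic ribosome has a small subunit that decodes the messenger RNA and a large subunit that joins amino acids, and each subunit holds many small, mostly basic proteins on a core of ribosomal RNA. Ribosomal protein transcripts are among the most abundant messages of a growing cell. Most begin with a C followed by a run of pyrimidines, the 5′ terminal oligopyrimidine (TOP) tract, through which mTOR signaling and the RNA-binding protein LARP1 regulate their translation and stability. Several members have paralogs, named with a final L or L1, that are expressed at lower levels in most tissues.

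Sequences around the annotated start sites were read from RefSeq (GRCh38.p14) for 67 of the 84 members. A C within 5 bases of the start followed by at least 4 of C or T, on the gene's own strand, was found for 54 of the 67 (80.6%), against 25.2% of the 27305 genes with an entry. A gene with several listed starts counted if any had the run. Windows of 30 bases, 10 before the start and 20 from it, are shown for members that moved furthest or against the family and for paralog pairs that moved apart. Capitals mark the longest run of C and T that opens with a C within 5 bases of the start. For a gene with several listed starts, the window shown is that of the start with the longest run. Run lengths given for such a gene are therefore the longest over its listed starts.
RPL3 (chr22:39319604-39319633, minus strand): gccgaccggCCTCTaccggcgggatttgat
RPL10 (chrX:154398367-154398396, plus strand): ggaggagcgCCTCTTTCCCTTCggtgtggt
RPL41 (chr12:56116623-56116652, plus strand): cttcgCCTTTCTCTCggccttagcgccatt
RPL22 (chr1:6199576-6199605, minus strand): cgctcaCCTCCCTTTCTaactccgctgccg
RPL22L1 (chr3:170870176-170870205, minus strand): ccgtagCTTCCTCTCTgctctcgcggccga
RPS12 (chr6:132814559-132814588, plus strand): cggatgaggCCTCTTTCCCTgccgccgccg
RPSA (chr3:39406710-39406739, plus strand): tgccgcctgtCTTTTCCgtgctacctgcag
RPL36 (chr19:5690285-5690314, plus strand): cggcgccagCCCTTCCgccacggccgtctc
RPL13A (chr19:49487598-49487627, plus strand): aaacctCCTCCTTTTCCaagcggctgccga
RPS27 (chr1:153990752-153990781, plus strand): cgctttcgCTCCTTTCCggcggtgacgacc
RPS27L (chr15:63157458-63157487, minus strand): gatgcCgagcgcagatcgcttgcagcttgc
RPL26 (chr17:8383174-8383203, minus strand): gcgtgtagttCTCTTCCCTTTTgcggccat
RPL26L1 (chr5:172958870-172958899, plus strand): ggcggcggccacaaaCCCgcaggcacgccg
RPL7L1 (chr6:42879606-42879635, plus strand): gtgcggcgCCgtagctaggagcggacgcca

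The run was 13 bases in RPL10, 11 in RPS12 and 5 in RPL3. It was 9 bases in RPS27 and 12 in RPL26, but 1 and 3 bases in their paralogs RPS27L and RPL26L1. RPL22 and RPL22L1 had runs of 11 and 10 bases. A run absent from a window means only that these letters do not stand at the annotated start, which need not be the start used in these cells. CCGGAAG, on either strand, stood in the 300 bases around the start of 24 of the 67 members (35.8%), against 12.2% of all genes with an entry, and AAGATGGC, on either strand, in 7 (10.4%), against 3.52%.

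Library depth was 47.5 M to 94.5 M gene-assigned reads. All 8 squamous or epithelial marker genes looked for passed the filter, KRT14 at a control mean of 136 normalized counts and KRT5 at 219927. Of the markers of other cell types, COL1A2 and DCN were at 0 in every control library, while VWF and COL1A1 had control means of 1001 and 14955. These levels moved with the drugs: the 12 markers of leukocytes, endothelium and fibroblasts, of which 4 passed the filter, summed to 17834 to 18641 normalized counts in the control, 12906 to 14330 under pyrimethamine and 6051 to 7889 under mitoxantrone. VWF and COL1A1 fell under mitoxantrone with log2 changes of -2.21 and -1.76, and COL1A1 and COL3A1 fell under pyrimethamine with -0.42 and -0.77. PTPRC had 1.32 to 11.2 in the control, 17.4 to 29.4 under pyrimethamine and 0 to 7.42 under mitoxantrone. It passed the filter only through the pyrimethamine group, where it is high, so its rise there carries no weight. The 8 squamous or epithelial markers summed to 342023 to 365497 in the control, 411567 to 436599 under pyrimethamine and 345394 to 367329 under mitoxantrone. That sum is weighted to KRT5 and KRT6A, which rose under pyrimethamine with log2 changes of 0.30 and 0.56. By calls, 2 of the 8 rose and 4 fell under pyrimethamine, and 3 rose and 2 fell under mitoxantrone. Over all genes tested, 26.4% rose and 26.9% fell under pyrimethamine, and 33.5% and 35.8% under mitoxantrone. SOX2 had log2 changes of -0.49 and 0.98. The part of these shifts in the family's changes was not tested. Normalized counts are the authors' read counts divided by 1 factor per library, and every level below is in that unit. Values of the family were not spread evenly within groups. Mitoxantrone replicate 1 was the lowest library of its group for 76 of the 82 members, by a median of 0.20 on the log2 scale against the mean of the other 3. Pyrimethamine replicate 4 was the highest of its group for 70 members, by a median of 0.13. Control replicate 1 was the lowest of its group for 68 members and pyrimethamine replicate 2 for 69, each by a median of 0.10. Counts of calls are therefore also given without mitoxantrone replicate 1.

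The family held 5.46%, 5.60%, 5.74% and 5.87% of all reads in control replicates 1 to 4. It held 5.94%, 5.66%, 5.90% and 6.28% in the pyrimethamine libraries and 6.42%, 7.22%, 7.34% and 7.42% in the mitoxantrone libraries, in the same order. The mitoxantrone libraries were all above the other 8, and the pyrimethamine and control libraries overlapped. Transcripts of the mitochondrial genome, which share the denominator, took 6.16% to 6.69% of control reads, 6.83% to 8.33% of reads in pyrimethamine libraries and 3.23% to 3.89% in mitoxantrone libraries. With these taken out of the denominator, the means for the ribosomal protein genes were 6.06%, 6.44% and 7.37% in the same order of groups. The separation was then lost, since mitoxantrone replicate 1, at 6.63%, lay below pyrimethamine replicate 4, at 6.80%.

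**Figure D1:**
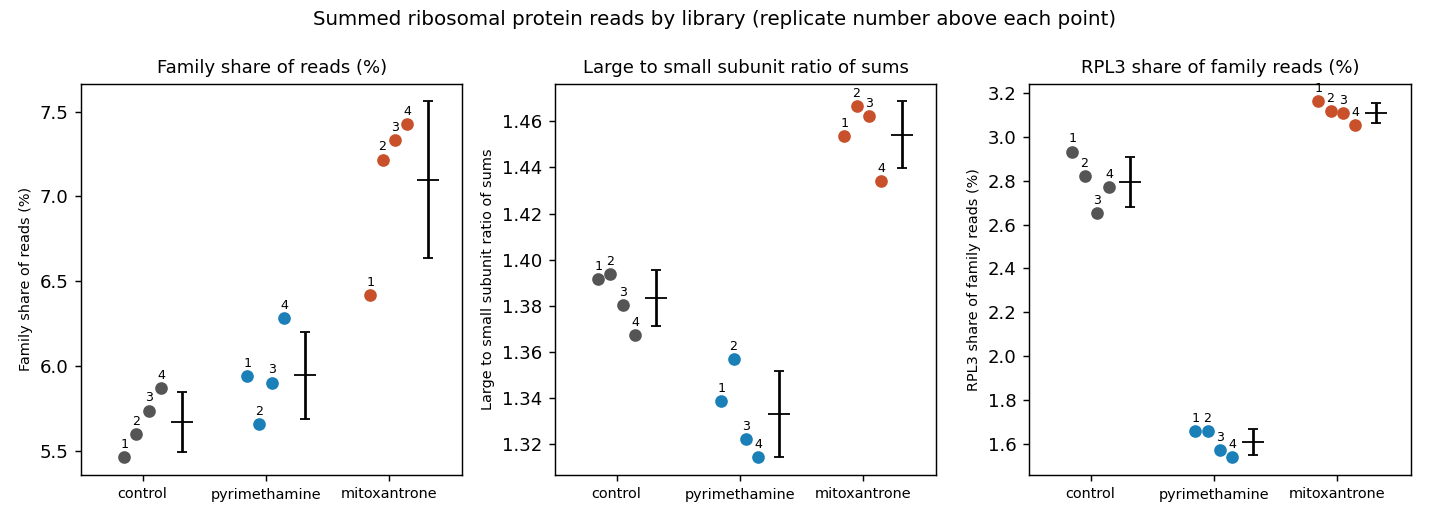
Share of all reads on ribosomal protein genes, ratio of summed large to small subunit values, and share of RPL3 in the family sum, for each of the 12 libraries. Points are libraries with their replicate number, and the bar beside them is the mean and SD of 4. The axes do not start at 0. The RPL3 share is 1.54% to 1.66% in the pyrimethamine libraries, below every control library.

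In the control, the highest levels per kilobase of transcript were those of RPS14, RPL41, RPS2, RPL7A and RPS18. RPS14, a protein of the small subunit platform, had 134747 normalized counts per kilobase, with 122822 to 147970 over the 4 libraries. RPL41, which encodes the shortest protein of the family, had 134428, RPS2 132015, RPL7A 128092 and RPS18 114169. The ranges of the leading 4 over the control libraries overlapped, so their order is not resolved. The lowest levels were those of RPS10 with 15.7, RPL36A with 78.5, RPL22L1 with 181 and RPS27L with 563.

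Low levels of several members coincide with shared exons. In GENCODE 29, RPS10 shares 84.0% of the exon bases of the transcript used here, on the same strand, with other genes, chiefly the readthrough gene RPS10-NUDT3. The share is 91.0% for RPL17, 77.6% for RPL36A, 65.3% for RPL26 and 41.5% for RPS15A. These genes had control means of 9.25 to 5614 normalized counts, whereas the 71 other members that are not paralogs had 7938 to 157487, with RPS6 highest. How reads on several genes were counted is not given in the sources used here, so their levels are uncertain. The transcript models used for length are also long for RPL37, RPL27A, RPS27L, RPL7L1, RPL37A and RPS23 (3437 to 7686 bases), and per-kilobase levels of these may be understated. Models of other members may be too long as well, so the order of levels per kilobase holds only for the models used.

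Under pyrimethamine most ribosomal protein transcripts that moved rose modestly, while RPL3 and 4 other large subunit genes fell. Of the 82 members, 48 rose (58.5%), 5 fell (6.10%) and 29 were not called, by limma at an adjusted p of 0.05. Over all genes tested, 26.4% were called higher and 26.9% lower. The median log2 change of the members was 0.17, against 0.00 over all genes tested. Of the 50 large subunit genes, 27 rose and 5 fell, with a median log2 change of 0.16. Of the 32 small subunit genes, 21 rose and 0 fell, with a median of 0.18. In 44 of the 82 members every pyrimethamine value was above every control value, and in 5 of the 82 below, against 25.8% and 25.4% of all genes. The split of calls depended on the scaling: with quantile normalization 27 of the 82 members rose and 9 of the 82 fell, against 26.8% and 28.5% of all genes. The median log2 change under that setting was 0.08. The number that rose also ranged from 40, without pyrimethamine replicate 4, where the median was 0.13, to 55, without mitoxantrone replicate 1, which enters only through the shared estimate of spread. Of all genes, 24.3% and 28.1% were called higher under these settings.

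**Figure D2:**
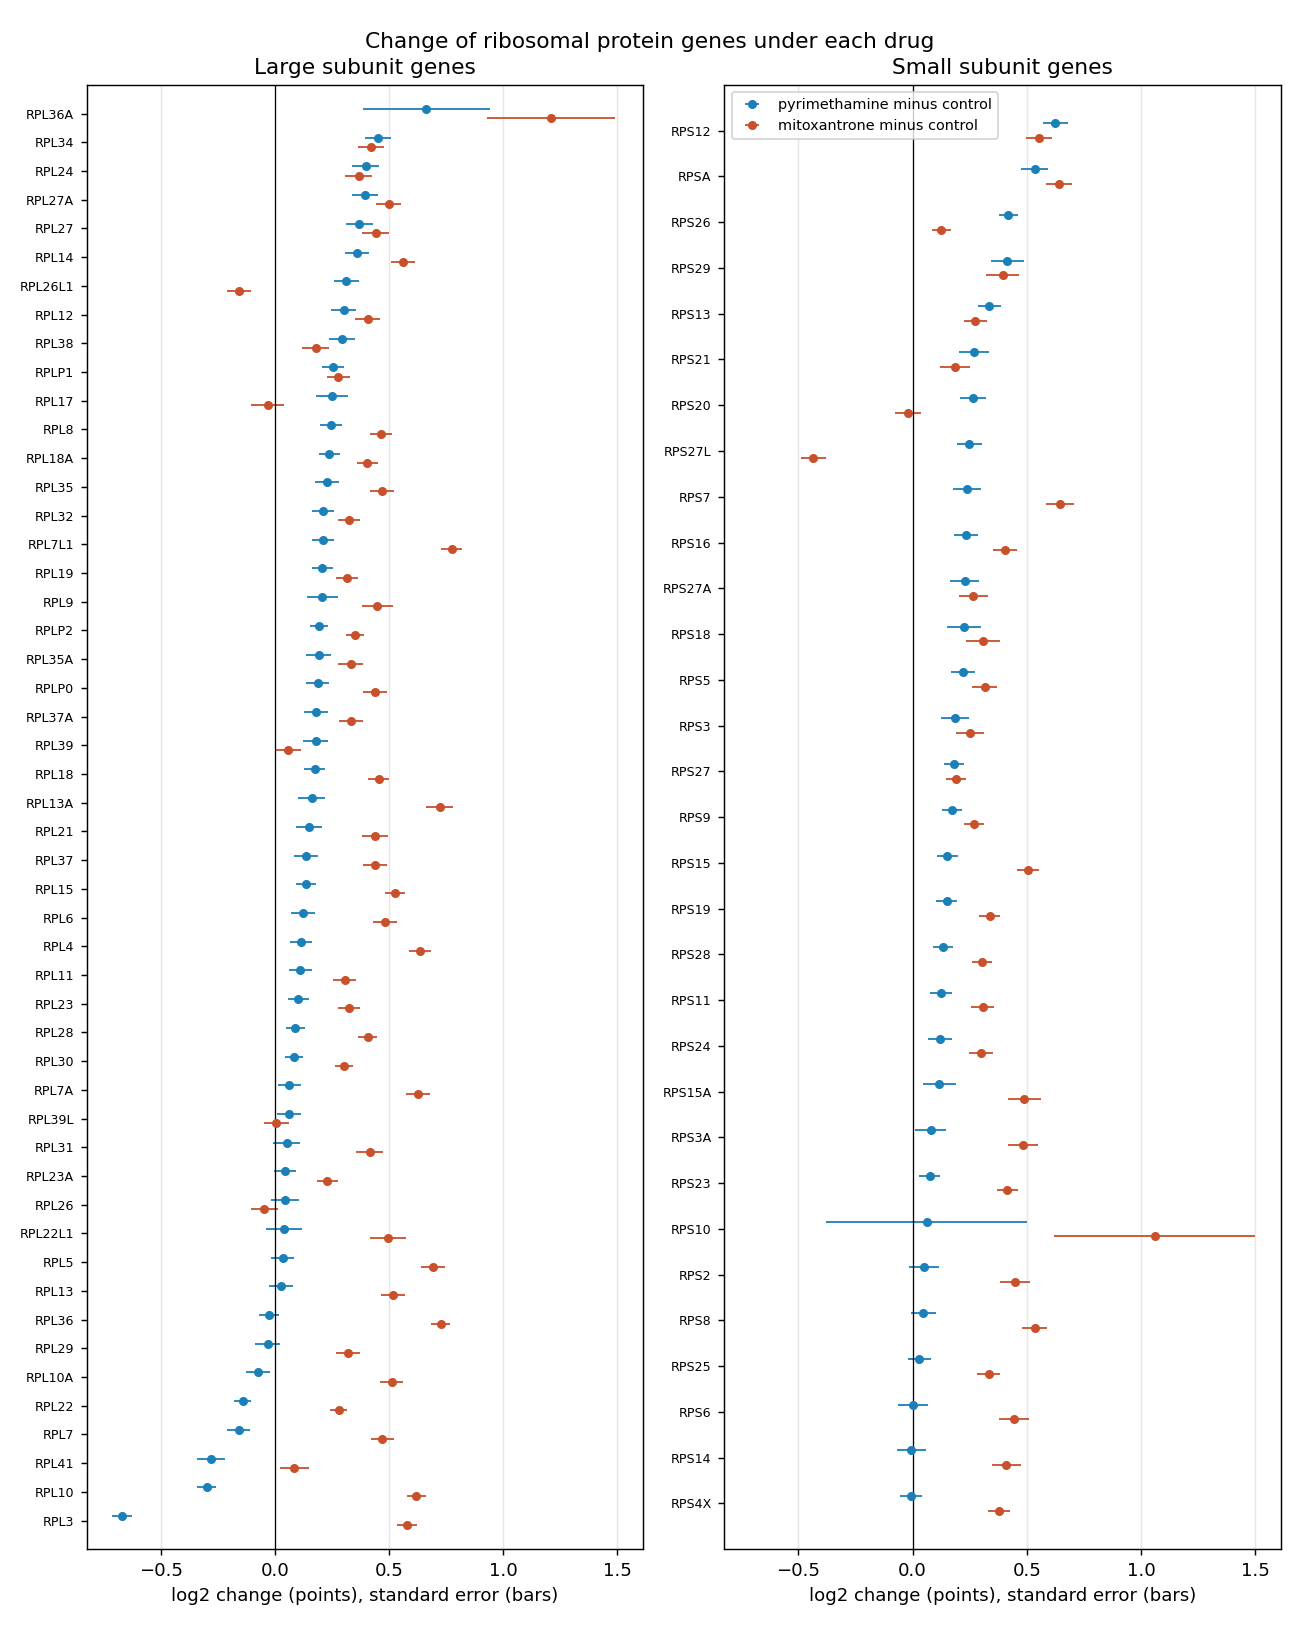
Log2 change from the control for tested members, under pyrimethamine (blue) and mitoxantrone (red), with large subunit genes on the left and small subunit genes on the right, ordered by the pyrimethamine change. Points are the fitted change and bars its standard error, with 4 libraries a group. RPL3 lies at -0.67 under pyrimethamine and at 0.58 under mitoxantrone.

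RPL3, which helps to form the entrance to the peptidyl transferase center, lies on chromosome 22 at 39312882 to 39320389 (GRCh38, minus strand) and has 3 snoRNA genes inside it. It had 98967, 98540, 95698 and 101723 normalized counts in control replicates 1 to 4, and 63690, 61032, 60504 and 63128 under pyrimethamine. Under mitoxantrone it had 133822, 152548, 153390 and 151063. The 3 groups did not overlap: all pyrimethamine libraries were low and all mitoxantrone libraries high. The fall under pyrimethamine was 1.59-fold, from 98732 ± 2466 to 62088 ± 1557 (SD, n = 4 each), a log2 change of -0.67 (SE 0.045, limma adjusted p = 8.37e-11). It was the lowest change of the family, and RPL10 followed at -0.30. RPL3 made up 2.65% to 2.93% of the summed family reads in the control, 1.54% to 1.66% under pyrimethamine and 3.05% to 3.16% under mitoxantrone.

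RPL10, whose late joining completes the large subunit, had 67239, 67015, 69551 and 69672 normalized counts in the control and 56675, 54554, 55387 and 55673 under pyrimethamine. All pyrimethamine libraries were lower, a log2 change of -0.30 (SE 0.041, limma adjusted p = 2.57e-06). RPL41 had 58647, 59612, 66576 and 67351 normalized counts in the control and 51446, 47825, 50844 and 57636 under pyrimethamine. It fell without overlap by 0.28 on the log2 scale (SE 0.063, limma adjusted p = 7.19e-04). RPL22, an RNA-binding protein of the large subunit surface, had 8248, 7845, 7841 and 7817 in the control and 7312, 7301, 6977 and 7200 under pyrimethamine, a log2 change of -0.14 (SE 0.037, limma adjusted p = 0.00277). RPL7 fell from 69100 ± 3626 to 61899 ± 2534 (SD, n = 4 each), a log2 change of -0.16 (limma adjusted p = 0.0122), and this call was lost without control replicate 4. RPL10A, next in order, had a log2 change of -0.07 and was not called (limma adjusted p = 0.233).

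**Figure D3:**
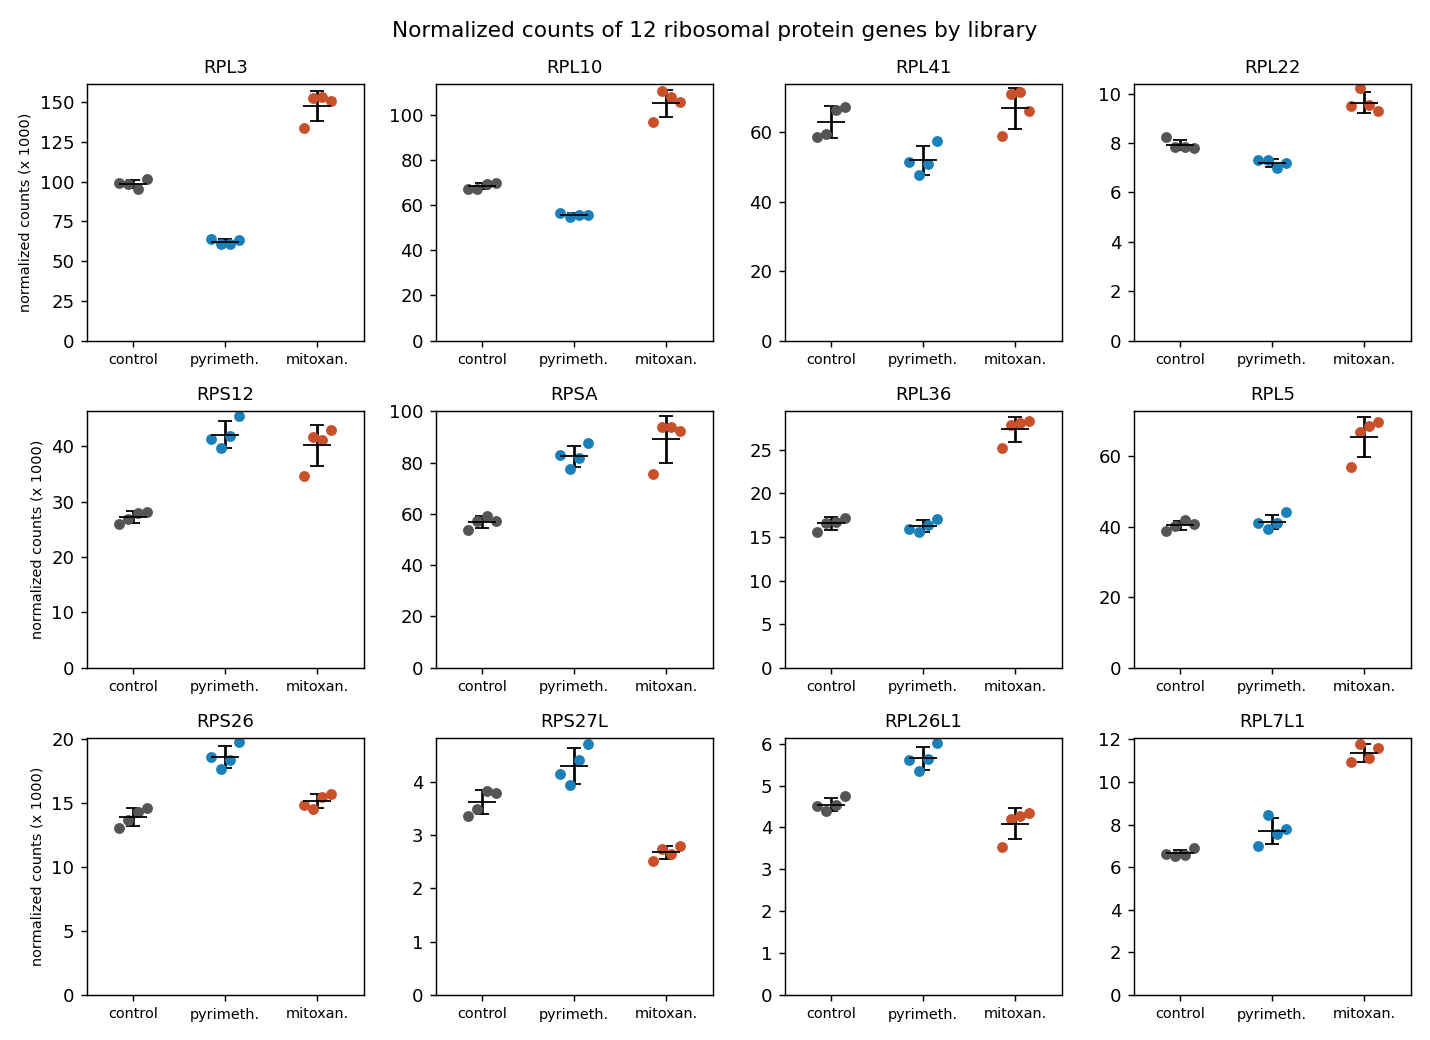
Normalized counts, on an axis in units of 1000, of 12 members in each library, by group (control grey, pyrimethamine blue, mitoxantrone red). Points are replicates 1 to 4 from left to right and black bars the mean and SD. RPL3, RPL10 and RPL22 separate into 3 groups without overlap, low under pyrimethamine and high under mitoxantrone, and RPS27L and RPL26L1 separate in the opposite order.

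The 2 largest called rises under pyrimethamine were in small subunit genes. RPS12, a protein of the small subunit head, had 25917, 26929, 28012 and 28205 normalized counts in the control and 41383, 39693, 41784 and 45438 under pyrimethamine. It rose 1.54-fold with no overlap, a log2 change of 0.62 (SE 0.055, limma adjusted p = 5.57e-09). RPSA, also known as the laminin receptor, had 53838, 57409, 59046 and 57091 in the control and 82941, 77422, 81664 and 87552 under pyrimethamine, a log2 change of 0.53 (SE 0.058, limma adjusted p = 1.16e-07). RPL34, RPS26 and RPS29 rose by log2 changes of 0.45, 0.42 and 0.41, each without overlap between groups. RPL36A had the highest fitted log2 change, 0.66, from 33.7 ± 12.2 to 51.6 ± 13.4 (SD, n = 4 each), but its groups overlapped and it was not called (limma adjusted p = 0.0507), although it passed under 8 of the settings tried. RPS6, the best known substrate of S6 kinase, had log2 change 0.00 and was not called.

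Under mitoxantrone nearly the whole family rose. Of the 82 members, 73 rose (89.0%), 2 fell (2.44%) and 7 were not called, against 33.5% higher and 35.8% lower over all genes tested. The median log2 change of the members was 0.41, against -0.01 over all genes tested. It was 0.43 over the 50 large subunit genes, of which 44 rose and 1 fell, and 0.34 over the 32 small subunit genes, of which 29 rose and 1 fell. Every mitoxantrone value was above every control value in 66 of the 82 members and below in 2 of the 82, against 29.9% and 31.0% of all genes. Without mitoxantrone replicate 1, 75 rose and 1 fell, with a median of 0.45, against 33.4% and 35.7% of all genes. The size of the rise depended on the scaling. With libraries scaled to the same total, 68 of the 82 members were higher and 4 lower, against 26.1% and 42.5% of all genes. The median of the members was then 0.30, and that of all genes moved to -0.11. Quantile normalization gave 50 of the 82 higher and 5 lower with a median of 0.17, against 36.1% and 32.8% of all genes.

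RPL36, a small protein of the large subunit, had 15579, 16669, 16747 and 17240 normalized counts in the control and 25244, 27840, 28119 and 28344 under mitoxantrone. It rose 1.65-fold with no overlap, a log2 change of 0.73 (SE 0.043, limma adjusted p = 2.75e-12). Under pyrimethamine it had 15975, 15570, 16425 and 17083, overlapping the control, and was not called (log2 change -0.03, limma adjusted p = 0.639). RPL13A, which also acts in translational silencing in interferon-treated myeloid cells, had 75036, 76925, 77700 and 78515 in the control and 107965, 133521, 134576 and 134025 under mitoxantrone. All 4 mitoxantrone libraries were higher, replicate 1 least, and the log2 change was 0.72 (SE 0.059, limma adjusted p = 5.01e-10). RPL3 rose 1.49-fold (log2 change 0.58, SE 0.045, limma adjusted p = 2.09e-10) and RPL10 rose 1.54-fold (log2 change 0.62, SE 0.041, limma adjusted p = 1.79e-11).

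RPL5 and RPL11 form, with 5S ribosomal RNA, the particle that binds MDM2 when ribosome assembly is disturbed. RPL5 had 38848, 40348, 41945 and 40664 normalized counts in the control and 41186, 39289, 41018 and 44152 under pyrimethamine, which overlapped. Under mitoxantrone it had 57087, 66798, 68674 and 69649, all higher than the control, a log2 change of 0.69 (SE 0.052, limma adjusted p = 1.54e-10). RPL11 had 36848 ± 2127 in control, 39786 ± 1736 in pyrimethamine and 45563 ± 3331 in mitoxantrone libraries (SD, n = 4 each). It rose under mitoxantrone with a log2 change of 0.31 (limma adjusted p = 1.67e-05) and was not called under pyrimethamine (log2 change 0.11, limma adjusted p = 0.0694), although it passed under 4 of the settings tried, among them without mitoxantrone replicate 1 (limma adjusted p = 0.015). The stalk proteins RPLP0, RPLP1 and RPLP2, which recruit translation factors, rose under pyrimethamine by log2 changes of 0.19, 0.25 and 0.19 and under mitoxantrone by 0.44, 0.28 and 0.35.

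RPL36A and RPS10 had the highest fitted log2 changes under mitoxantrone, 1.21 and 1.06, on few reads. RPL36A had 42, 36, 40 and 16 normalized counts in the control and 72, 68, 61 and 102 under mitoxantrone, with no overlap (limma adjusted p = 6.2e-04). RPS10 had 7, 5, 18 and 7 in the control and 10, 16, 21 and 32 under mitoxantrone, and its groups overlapped. It reached 10 in 3 of the 8 control and pyrimethamine libraries and so passed the filter only through the mitoxantrone group, where it is high. Its call, counted among the 73, therefore carries no weight, and it was lost under 8 of the settings tried. Both are among the genes with shared exons. Members not called under mitoxantrone included RPS20, RPL26, RPL39L, RPL39, RPL41 and RPL17, with log2 changes from -0.05 to 0.09, and RPL39 and RPL41 were called without mitoxantrone replicate 1.

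**Figure D4:**
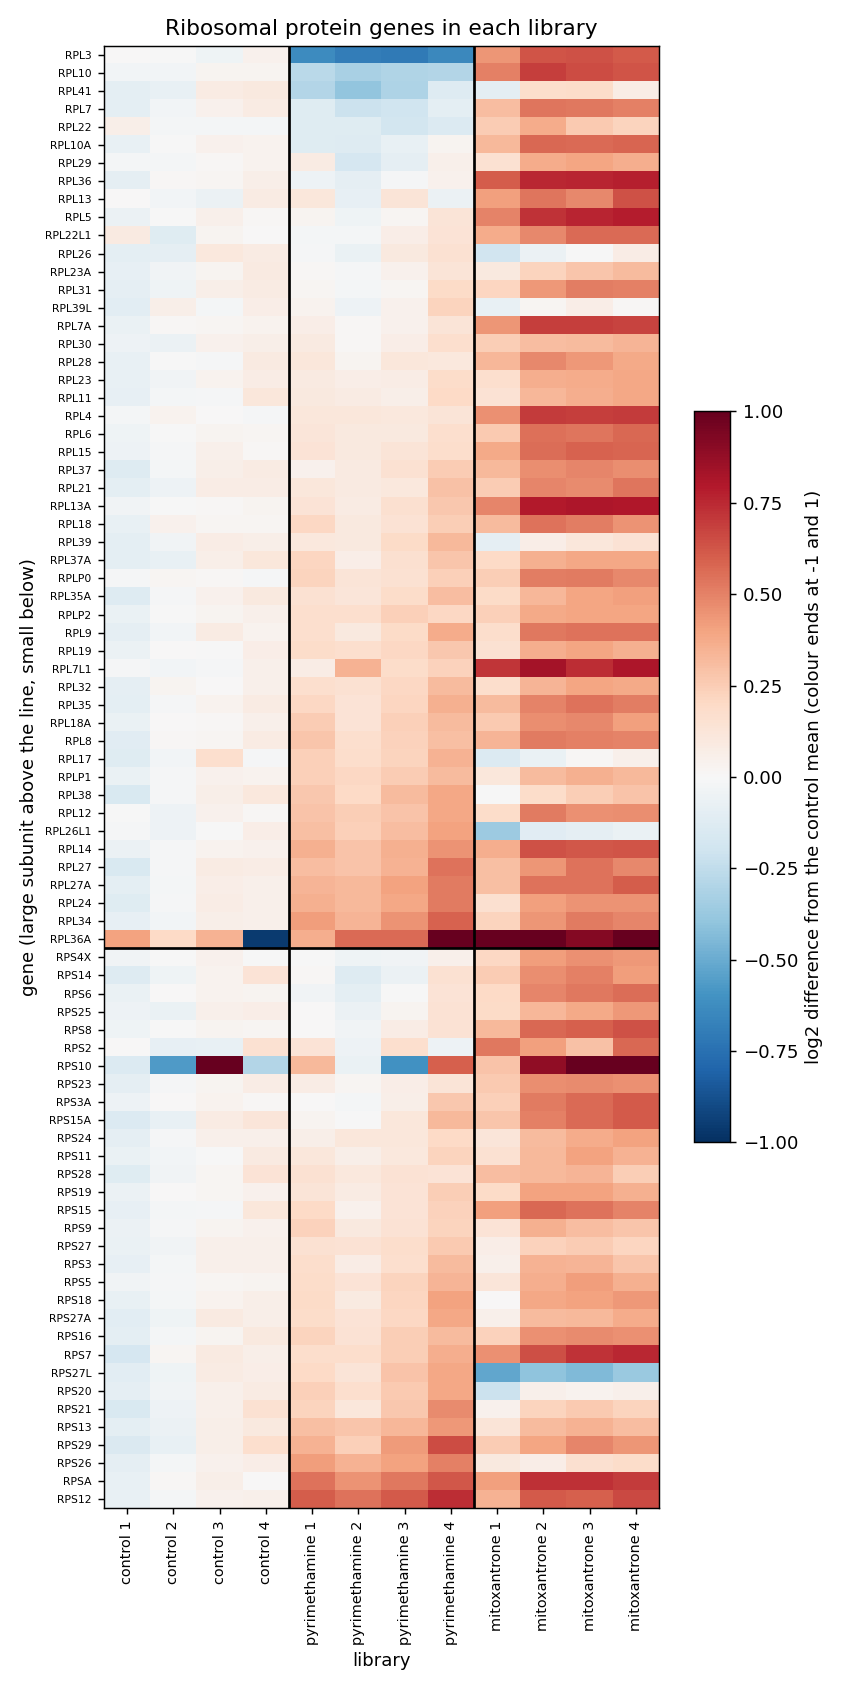
Log2 difference of tested members from their control means in each of the 12 libraries, with large subunit genes above the line and small subunit genes below, ordered by the pyrimethamine change. Red is higher and blue lower, with the colour scale ending at -1 and 1. RPL3, RPL10, RPL41, RPL7 and RPL22 are blue in every pyrimethamine library, and mitoxantrone replicate 1 is paler than the other 3 mitoxantrone libraries for most genes.

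The paralogs did not all move with the genes they resemble. RPS27L, which is known as a target gene of p53, had 3364, 3501, 3826 and 3793 normalized counts in the control, and 4145, 3949, 4412 and 4720 under pyrimethamine. Under mitoxantrone it had 2522, 2733, 2657 and 2799. The 3 groups did not overlap. It rose by 0.25 on the log2 scale under pyrimethamine (SE 0.054, limma adjusted p = 5.54e-04) and fell by 0.43 on the log2 scale under mitoxantrone (SE 0.054, limma adjusted p = 3.66e-07). RPS27 rose in both comparisons, with log2 changes of 0.18 and 0.19, the latter falling to -0.02 with quantile normalization.

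RPL26L1, nearly identical in sequence to RPL26, had 4512, 4385, 4526 and 4759 normalized counts in the control and 5610, 5357, 5622 and 6012 under pyrimethamine. Under mitoxantrone it had 3537, 4190, 4280 and 4347. It rose under pyrimethamine with a log2 change of 0.31 (SE 0.054, limma adjusted p = 4.64e-05). It fell under mitoxantrone with a log2 change of -0.16 (SE 0.054, limma adjusted p = 0.0137), a call lost without mitoxantrone replicate 1. RPL26 was called in neither comparison (log2 changes 0.04 and -0.05). Its control mean was 3196 normalized counts, below the 4546 of RPL26L1. RPL26 shares 65.3% of its exon bases on the same strand with other genes, so its level and changes are uncertain. Reads may also be shared between close copies, so single members of such pairs are uncertain.

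RPL7L1, which takes part in large subunit assembly, rose in both comparisons. It had 6604, 6502, 6592 and 6882 normalized counts in the control, 6989, 8462, 7559 and 7803 under pyrimethamine, and 10925, 11805, 11113 and 11616 under mitoxantrone. The log2 changes were 0.21 (limma adjusted p = 6.11e-04) and 0.77 (limma adjusted p = 3.53e-12), while RPL7 fell under pyrimethamine and rose under mitoxantrone by 0.47. RPL22L1 had 420, 363, 403 and 397 normalized counts in the control, 391, 389, 413 and 435 under pyrimethamine, and 511, 550, 585 and 586 under mitoxantrone. It rose under mitoxantrone (log2 change 0.49, limma adjusted p = 9.56e-06) and was not called under pyrimethamine, where RPL22 fell. RPL39, at the exit of the peptide tunnel, rose under pyrimethamine (log2 change 0.18, limma adjusted p = 0.00889), a call lost under 4 of the settings tried. Its paralog RPL39L was called in neither comparison (log2 changes 0.06 and 0.01).

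Compared directly, the drugs left 54 of the 82 members higher under mitoxantrone than under pyrimethamine (65.9%) and 5 lower (6.10%), against 36.9% and 39.5% of all genes tested. These values use the same drug libraries as the comparisons with the control. The median log2 difference was 0.21, with 0.24 over large subunit genes and 0.17 over small subunit genes, against -0.02 over all genes tested. Without mitoxantrone replicate 1, 63 were higher and 5 lower, with a median of 0.25, against 36.6% and 39.5% of all genes. Groups did not overlap for 35 of the 82 members above and 5 of the 82 below, against 33.3% and 35.5% of all genes. The split depended on the scaling: quantile normalization gave 39 of the 82 higher and 16 of the 82 lower, against 40.1% and 36.2% of all genes. The small subunit median was then 0.00. RPL3 differed most among members, 2.38-fold higher under mitoxantrone (log2 difference 1.25, SE 0.045, limma adjusted p = 2.34e-16), and RPL10 differed by 0.92 (limma adjusted p = 9.45e-15). RPS10, chosen by the filter through its mitoxantrone values, had a fitted difference of 1.00, a call lost under 9 of the settings tried.

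The 5 members lower under mitoxantrone than under pyrimethamine were RPS27L, RPL26L1, RPS26, RPS20 and RPL17, with log2 differences of -0.68, -0.47, -0.29, -0.28 and -0.28. RPS26, which lies where the messenger RNA leaves the ribosome, had 13072, 13694, 14346 and 14595 normalized counts in the control, and 18625, 17692, 18378 and 19782 under pyrimethamine. Under mitoxantrone it had 14897, 14582, 15519 and 15762, overlapping the control and below every pyrimethamine library. Against the control it was called higher under mitoxantrone despite the overlap (log2 change 0.13, limma adjusted p = 0.0111). That result was weaker under 4 of the settings tried. RPS20 had 51778 ± 2875 in control, 62192 ± 4039 in pyrimethamine and 51129 ± 4415 in mitoxantrone libraries (SD, n = 4 each). RPS12, RPL34 and RPS29, among the highest rises under pyrimethamine, were not called between the drugs (log2 differences -0.07, -0.03 and -0.02, limma adjusted p = 0.248, 0.641 and 0.803).

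The ratio of the summed large to small subunit values was 1.39, 1.39, 1.38 and 1.37 in control replicates 1 to 4, 1.34, 1.36, 1.32 and 1.31 under pyrimethamine and 1.45, 1.47, 1.46 and 1.43 under mitoxantrone. The 3 groups did not overlap. Without RPL3 the ratio was 1.30 to 1.33 in the control and 1.28 to 1.32 under pyrimethamine, which overlapped, and 1.36 to 1.39 under mitoxantrone, which stayed above both. Without all 5 genes that fell under pyrimethamine, a choice made after their values were seen, it was 1.16 to 1.19, 1.17 to 1.21 and 1.22 to 1.24. Sums weight the most abundant members and were given no test.

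Changes were also set beside transcript length, snoRNA genes and the start sequence. Over 70 members with models of at most 3000 bases and at most 40% shared exon, Spearman's rho between the log2 change and transcript length was -0.38 under pyrimethamine and 0.35 under mitoxantrone. The same measure between libraries of 1 group, each minus replicate 1, was -0.30, -0.49 and -0.54 for control replicates 2, 3 and 4, 0.16, -0.30 and -0.44 for the pyrimethamine replicates and 0.16, 0.01 and 0.09 for the mitoxantrone replicates. Differences within the control group, which enters both comparisons, thus reached the size of the relation under either drug. Those within the pyrimethamine group reached the size of the relation under pyrimethamine. Those within the mitoxantrone group did not reach that under mitoxantrone. Members share libraries, so these are descriptions, and the part of a length-related difference between libraries in the drug changes was not tested. The 28 members with a snoRNA gene inside had median log2 changes of 0.14 under pyrimethamine and 0.44 under mitoxantrone, against 0.18 and 0.39 for the other 54. The 54 members with the pyrimidine run at the start had medians of 0.17 and 0.41, and the 12 tested members whose listed start lacks it had 0.23 and 0.42, with RPS27L and RPL26L1 among the 12.

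**Figure D5:**
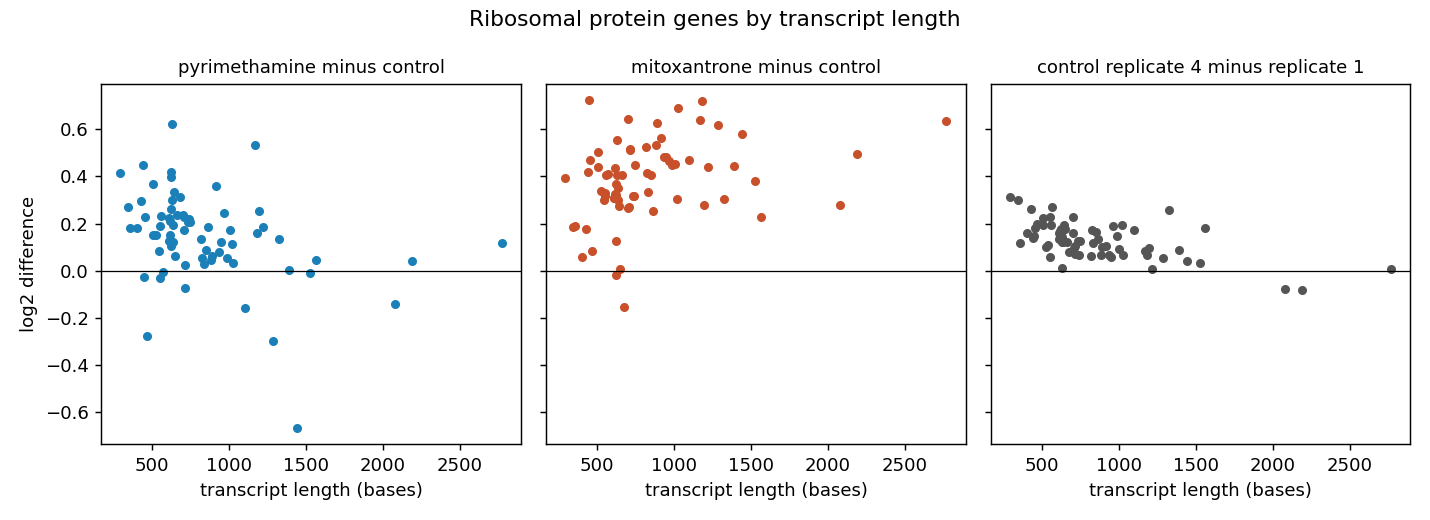
Log2 difference against transcript length in bases for 70 members, for each drug minus the control and for control replicate 4 minus control replicate 1, the pair of same-group libraries with the largest rho in size among the 9 computed. Each point is a gene. Shorter transcripts lie higher in the left panel and in the panel of 2 control libraries (rho -0.38 and -0.54), and lower in the mitoxantrone panel (rho 0.35).

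Reads on ribosomal protein pseudogenes, which can be shared with the members, were few. They amounted to 0.56 to 0.59 per 100 member reads in the control, 0.48 to 0.53 under pyrimethamine and 0.50 to 0.58 under mitoxantrone. Since the handling of shared reads is not given in the sources used here, these counts do not tell how far members are affected. Ribosomal proteins that the symbol rule does not take include RACK1, RPL36AL and the ubiquitin-like fusion FAU. Under pyrimethamine FAU rose, with a log2 change of 0.27, and RACK1 and RPL36AL were not called (log2 changes 0.07 and 0.08). Under mitoxantrone RACK1, a signaling scaffold on the small subunit, rose with a log2 change of 0.55 (limma adjusted p = 1.96e-10), FAU rose by 0.16, and RPL36AL was not called (log2 change 0.02).

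Of 8 chaperones or modifiers that serve single ribosomal proteins, 3 rose, 1 fell and 4 were not called under pyrimethamine, and 4 rose and 4 were not called under mitoxantrone. Of all genes 26.4% were called higher and 26.9% lower under pyrimethamine, and 33.5% and 35.8% under mitoxantrone, and no test set this short list apart from them. GRWD1, the chaperone of RPL3, had 5237 ± 205 normalized counts in control, 6117 ± 149 in pyrimethamine and 5816 ± 161 in mitoxantrone libraries (SD, n = 4 each). It rose in both comparisons, with log2 changes of 0.22 and 0.15 (limma adjusted p = 3.29e-05 and 0.00122). METTL18, which methylates RPL3, was called in neither (log2 changes 0.07 and 0.08). HEATR3, which serves RPL5 import, fell under pyrimethamine (log2 change -0.14, limma adjusted p = 0.016), and TSR2, the RPS26 chaperone, rose under mitoxantrone (log2 change 0.16, limma adjusted p = 0.00166).

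Other transcripts known to carry a TOP tract moved in both directions under pyrimethamine. Of 16 tested, 6 rose, 6 fell and 4 were not called, beside 26.4% higher and 26.9% lower over all genes, and the median log2 change was 0.02. Under mitoxantrone 14 rose, 1 fell and 1 was not called, beside 33.5% and 35.8%, and the median was 0.40. The difference between this list and the family was not tested. EEF1G, the 17th of the list, was listed at 0 in all libraries. Chosen after their values were seen, HNRNPA1, a splicing factor, had log2 changes of -0.78 and 0.75 under pyrimethamine and mitoxantrone. EIF4B, an initiation factor, had -0.59 and 0.68, and EIF3H, an initiation factor subunit, had 0.45 and 0.44.

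Of 14 genes that control TOP transcripts, 6 rose, 5 fell and 3 were not called under pyrimethamine, and 9 rose and 5 fell under mitoxantrone, beside the same shares over all genes. DDIT4, an inhibitor of mTOR complex 1, fell from 2646 ± 100 to 1200 ± 58.8 normalized counts under pyrimethamine and rose to 10457 ± 2218 under mitoxantrone (SD, n = 4 each), log2 changes of -1.14 and 1.96. The repressors of cap-dependent translation EIF4EBP1 and EIF4EBP2 moved in opposite directions. EIF4EBP1 fell under pyrimethamine with a log2 change of -0.76 and rose under mitoxantrone with 1.24, and EIF4EBP2 rose under pyrimethamine with 0.42 and fell under mitoxantrone with -0.67. LARP1, not among the largest changes of this list, was not called under pyrimethamine (log2 change -0.04) and rose under mitoxantrone with 0.53. The genes of the list not named here moved in both directions and are given only by the counts.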

How the data were processed

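Per the submitters' processing notes, reads were handled with featureCounts 1.5.1, STAR 2.6.90c, cutadapt 1.12 and FastQC 0.11.5, and the builds hg38 and mm10 are named. The deposited values are a normalized signal, that is, gene read counts over a library-wide factor set by the authors. All values were whole reads within 0.01 once multiplied back, and all 12 factors matched median-of-ratios factors. The tool that made them, the strand setting and the handling of reads on several genes are not given in the sources used here.

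limma 3.58.1 (R 4.3.3) was fitted to log2(value + 1) of the 16950 genes with at least 10 in at least 4 libraries, to the 12 libraries together, with a group term alone, eBayes and a variance trend. Tests were two-sided, adjusted by Benjamini-Hochberg over all genes, with calls at 0.05. Folds are back-transformed log2 changes and are understated for genes with few counts. Alternatives on the recovered reads were DESeq2 1.42.0 and edgeR 4.0.16. The limma fit was tested on simulated data. Transcript lengths and coordinates are from GENCODE 29 (GRCh38), which may differ from the authors' annotation. Tables and figures used Python 3.11.15, pandas 2.3.3 and matplotlib 3.10.9.

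Members and lists were chosen with earlier results of these data known. Named members are RPL3, RPL5, RPL11, the 6 highest and 6 lowest changes per comparison, members called against the majority, paralog pairs, the 5 highest and 5 lowest control levels per length, and members whose control values span over 1.5-fold. RPS6, the RPLP genes and members behind small counts were named after their values were seen. A few genes of the rule and lists are counted but not reported here by name.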

Additional observations from a re-analysis of the deposited data

Results flagged for a closer look

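In 9 of the 32 named members, mitoxantrone replicate 1 stood far below the other 3 libraries of its group. Its normalized counts were 133822 for RPL3 (151063 to 153390 in the others), 44691 for RPL10A (52855 to 53326), 107965 for RPL13A (133521 to 134576) and 25244 for RPL36 (27840 to 28344). They were 85516 for RPL7 (98038 to 99976), 155330 for RPL7A (182334 to 184333) and 70149 for RPS18 (91575 to 94571). They were 44514 for RPS20 (53022 to 53504) and 75583 for RPSA (92401 to 94027). In the control, RPL22 was high in replicate 1, at 8248 against 7817 to 7845. The groups of 4 values examined, 102 in all, were those of the named members, of the family's share of reads and of the large to small subunit ratio, and 10 were marked in this way, where chance marks about 1 in 20. The members share libraries and their flags are not independent.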

How the results depend on the processing

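Over single libraries left out, the members called higher ranged from 40 to 55 for pyrimethamine against the control, 69 to 75 for mitoxantrone against the control and 49 to 63 between the drugs. Of all genes, 24.2% to 28.1%, 32% to 33.5% and 35.8% to 36.9% were then called higher. Members called lower ranged from 4 to 5, 1 to 2 and 5 to 7, with the 1 found without mitoxantrone replicate 1. The shares of all genes called lower were 24.8% to 28.4%, 34.1% to 35.7% and 38.3% to 39.6%. edgeR called 48 higher and 5 lower, 73 and 2, and 58 and 5, and DESeq2 50 and 5, 73 and 2, and 56 and 6, in the same order. Of all genes, edgeR called 26.6% higher and 28.2% lower, 34.2% and 35.2%, and 37.8% and 38.5%. DESeq2 called 27.8% and 27.2%, 34.2% and 35.7%, and 36.9% and 39.5%. Quantile normalization called 27 members higher and 9 lower for pyrimethamine, beside 26.8% and 28.5% of all genes. It called 5 lower for mitoxantrone against the control and 16 lower between the drugs, beside 32.8% and 36.2% of all genes. Scaling to the same total called 4 lower under mitoxantrone and 9 lower between the drugs, upper-quartile scaling 10 between the drugs, and the fit with no variance trend 1 under mitoxantrone. Of all genes, 42.5%, 41.9%, 42.7% and 34.8% were called lower under these settings, in the same order. The cause was not tested. Over all genes tested, same-numbered libraries did not deviate together (correlations -0.013 to 0.029). The family did lean by replicate number, in control, pyrimethamine and mitoxantrone libraries in turn. Replicate 1 differed from the rest of its group by medians of -0.10, -0.03 and -0.20 on the log2 scale, and replicate 4 by 0.08, 0.13 and 0.08. With a replicate block the counts were 54 higher and 5 lower, 73 and 2, and 54 and 7. The shares of all genes were 26.5% and 26.9%, 33.5% and 35.8%, and 36.8% and 39.5%. Without the mitochondrial genome in the denominator the family's share was 6.06% in the control, 6.44% under pyrimethamine (6.14% to 6.80%) and 7.37% under mitoxantrone (6.63% to 7.72%), and the drug groups overlapped.

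Named members whose log2 change turned sign were mostly near 0. With quantile normalization, pyrimethamine against the control gave -0.0027 for RPL13A, -0.069 for RPL5, -0.082 for RPL7A, -0.060 for RPS10 and -0.079 for RPS2. Mitoxantrone against the control gave -0.11 for RPL39, -0.025 for RPL39L, -0.22 for RPL41, -0.036 for RPS18 and -0.016 for RPS27. Between the drugs it gave -0.12 for RPS18, -0.11 for RPS27 and -0.097 for RPSA. With the same total, pyrimethamine gave -0.016 for RPL22L1, -0.014 for RPL26, -0.024 for RPL5 and -0.0061 for RPS2. Mitoxantrone gave -0.043 for RPL39, -0.095 for RPL39L and -0.016 for RPL41, and RPS27 was at -0.036 between the drugs. Upper-quartile scaling gave 0.0047 for RPS14 under pyrimethamine, -0.040 for RPL39L under mitoxantrone and -0.050 for RPS27 between the drugs. Over libraries left out, RPS10 ranged from -0.13 to 0.40 and RPS14 from -0.058 to 0.040 under pyrimethamine. Under mitoxantrone RPL17 ranged from -0.074 to 0.023, RPL26 from -0.085 to 0.0027, RPL39L from -0.030 to 0.033 and RPS20 from -0.052 to 0.044. Between the drugs RPL34 ranged from -0.066 to 0.035, RPS27 from -0.012 to 0.049 and RPS29 from -0.081 to 0.059. RPS10 and RPL36A had the fewest reads, and the effect of depth was not tested.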
